A study of Mus musculus with 10 samples.

Results

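The genes described here are Pou5f1, which encodes Oct4, Sox2 and Nanog, the core trio of pluripotency transcription factors. They are 3 of the 22713 gene IDs measured by mRNA sequencing in 8 libraries of mouse embryonic stem (ES) cells, and their promoters are 3 of 22367 protein-coding promoters covered by 2 ChIP-seq libraries. The genes were listed by name, with no measured value in the rule. Each symbol matched 1 Ensembl ID, and all 3 genes passed the filter on low values, as did 13449 genes in all.

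Oct4 is a POU-domain protein and Sox2 an HMG-box protein, and both bind side by side on composite elements in the enhancers of many genes that ES cells express. Nanog is a homeodomain protein that binds many of the same enhancers. The 3 factors regulate their own and each other's genes, and loss of Oct4 is known to turn mouse ES cells towards trophectoderm, the outer layer of the early embryo that forms the placenta.

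The libraries come from 2 ES cell lines. Pontin f/f; CreER ES cells carry floxed alleles of Pontin (Ruvbl1), an ATPase found in chromatin remodelling complexes, together with a Cre recombinase that 4-hydroxytamoxifen (OHT) activates. They gave 1 library without treatment (WT), 1 at 3 days (OHT 3D) and 1 at 4 days (OHT 4D) after OHT. An untreated library of this line serves as the reference, so no group controls for OHT or for Cre activity alone. ZHBTc4 ES cells are a single line in which both endogenous Pou5f1 alleles are disrupted and Oct4 comes from a transgene that tetracycline (Tc) switches off. They gave 1 library at 2 days of Tc (Tc 2D), and, at 4 days after infection with lentivirus, 2 libraries with the pLKO control and 2 with an shRNA against the long non-coding RNA linc1253. Untreated ZHBTc4 ES cells gave the ChIP-seq libraries, 1 for Pontin and 1 for GFP as background. ES cells were grown with fibroblast feeders or without them, and the sources used here do not say which applied to each library. The labels do not say whether the replicates were separate cultures, so p-values measure the spread between these libraries, which may be technical.

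Reads on genes ranged from 17187595 to 37951742 per mRNA library. Values are normalised read counts in CPM (read counts scaled to library size), and the first 4 libraries and the 4 shRNA libraries were normalised in separate tables. The check of the Pontin depletion is Ruvbl1 itself, with a CPM of 198 before OHT, 33.3 on day 3 and 50.9 on day 4. linc1253 itself was not analysed here, so its knockdown was not checked. Intervals in brackets are 95% intervals that cover the counting of reads only.

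In the NCBIM37 assembly all 3 genes lie on the plus strand. Pou5f1 (ENSMUSG00000024406) spans chr17:35642982-35647721 and its longest-reaching upstream transcript has 5 exons. Sox2 (ENSMUSG00000074637) is a gene of 1 exon at chr3:34548927-34551383, inside an intron of the non-coding gene Sox2ot on the same strand, and no exon of Sox2ot overlaps it. Nanog (ENSMUSG00000012396) spans chr6:122657507-122664651 and has 5 exons. Processed pseudogenes of Pou5f1 and Nanog are annotated elsewhere in the mouse genome. They are not among the genes analysed here, so how reads shared with such copies were assigned is uncertain.

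The 250 bases upstream of each annotated gene start are shown because the Pontin ChIP-seq bears on these regions and because Oct4-Sox2 elements are one way in which the genes of the trio are linked. Capitals mark matches to the octamer core ATGCAAA, to the Sox core CATTGT, or to the composite element (the Sox core, 1 base of any kind and then ATGCA), on either strand.
Pou5f1 promoter, chr17:35642732-35642981, plus strand: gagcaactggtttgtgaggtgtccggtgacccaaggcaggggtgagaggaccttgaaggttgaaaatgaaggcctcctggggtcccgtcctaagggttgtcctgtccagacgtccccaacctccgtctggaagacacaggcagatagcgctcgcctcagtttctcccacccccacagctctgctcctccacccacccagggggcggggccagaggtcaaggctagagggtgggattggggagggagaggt
Sox2 promoter, chr3:34548677-34548926, plus strand: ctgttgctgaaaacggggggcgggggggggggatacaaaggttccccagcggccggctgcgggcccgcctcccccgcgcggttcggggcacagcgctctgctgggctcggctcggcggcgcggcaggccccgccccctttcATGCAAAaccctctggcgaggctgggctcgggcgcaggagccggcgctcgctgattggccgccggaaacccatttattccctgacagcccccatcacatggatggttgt
Nanog promoter, chr6:122657257-122657506, plus strand: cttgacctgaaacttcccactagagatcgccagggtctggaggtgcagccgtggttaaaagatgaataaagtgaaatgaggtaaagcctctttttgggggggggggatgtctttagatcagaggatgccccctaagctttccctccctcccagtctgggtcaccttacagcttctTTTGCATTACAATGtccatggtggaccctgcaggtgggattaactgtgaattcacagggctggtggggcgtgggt

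The Nanog promoter held the composite element on the opposite strand, 73 bases upstream of the annotated start. The same stretch matched the octamer core at 75 bases and the Sox core at 67 bases upstream, so the 3 matches overlap. A composite match was present in 4 of 22380 protein-coding promoters of this length, or 0.0179%. The Sox2 promoter held the octamer core 109 bases upstream of the start, which 3.93% of promoters hold. No match was present in the 250 bases of Pou5f1. From 2500 bases upstream to 500 bases downstream, Pou5f1 had 2 Sox core matches and Sox2 had 4, and 75.8% of all promoters had at least 1. The 3 promoters also differed in base composition, with 62.0% G and C in Pou5f1, 70.8% in Sox2 and 52.0% in Nanog. No composite match was present in that larger window of Pou5f1 or Sox2. Only exact matches to the strings above were searched, so elements with a variant sequence were not counted. Sequence outside that window was not searched, and a match is a description of the letters only.

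All 3 genes were lower in Oct4-depleted ES cells than in any other mRNA library. Pou5f1, the gene that the Tc switch acts on, gave a CPM of 301 in the WT library and of 21.1 in the Tc 2D library. Sox2, the partner of Oct4 on composite elements, gave 458 and 129. Nanog, whose promoter carries the composite element, gave 367 and 76.1. Pou5f1 thus retained 6.99% of its WT level, Nanog 20.7% and Sox2 28.2%. The log2-fold-changes, taken after adding 1 to the CPM, were -3.78 (-3.89 to -3.66) for Pou5f1, -2.26 (-2.32 to -2.19) for Nanog and -1.82 (-1.87 to -1.76) for Sox2. The counting intervals of the 3 genes do not overlap. All 3 genes passed the study's threshold, an absolute log2-fold-change above 0.58, in a comparison in which 25.8% of 13449 genes were called as downregulated and 23.9% as upregulated. Of all genes tested, 0.409% had a lower value than Pou5f1, 2.10% than Nanog and 3.64% than Sox2, whereas the median of all genes was -0.06. With each library scaled to its reads on genes in place of TMM, a scaling added after the data were seen, the median of all genes shifted to 0.24, and 4663 genes rose and 2132 fell, against 3218 and 3474 on the deposited scale. On that scale the 3 genes still fell, with -3.46 for Pou5f1, -1.94 for Nanog and -1.50 for Sox2. With 1 library per group these differences have no replicate check, and Pou5f1 is the gene that was switched off by design, so its fall checks the label. The 598 reads that remained on Pou5f1 at Tc 2D cannot be divided between the transgene and the disrupted endogenous alleles.

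**Figure D1:**
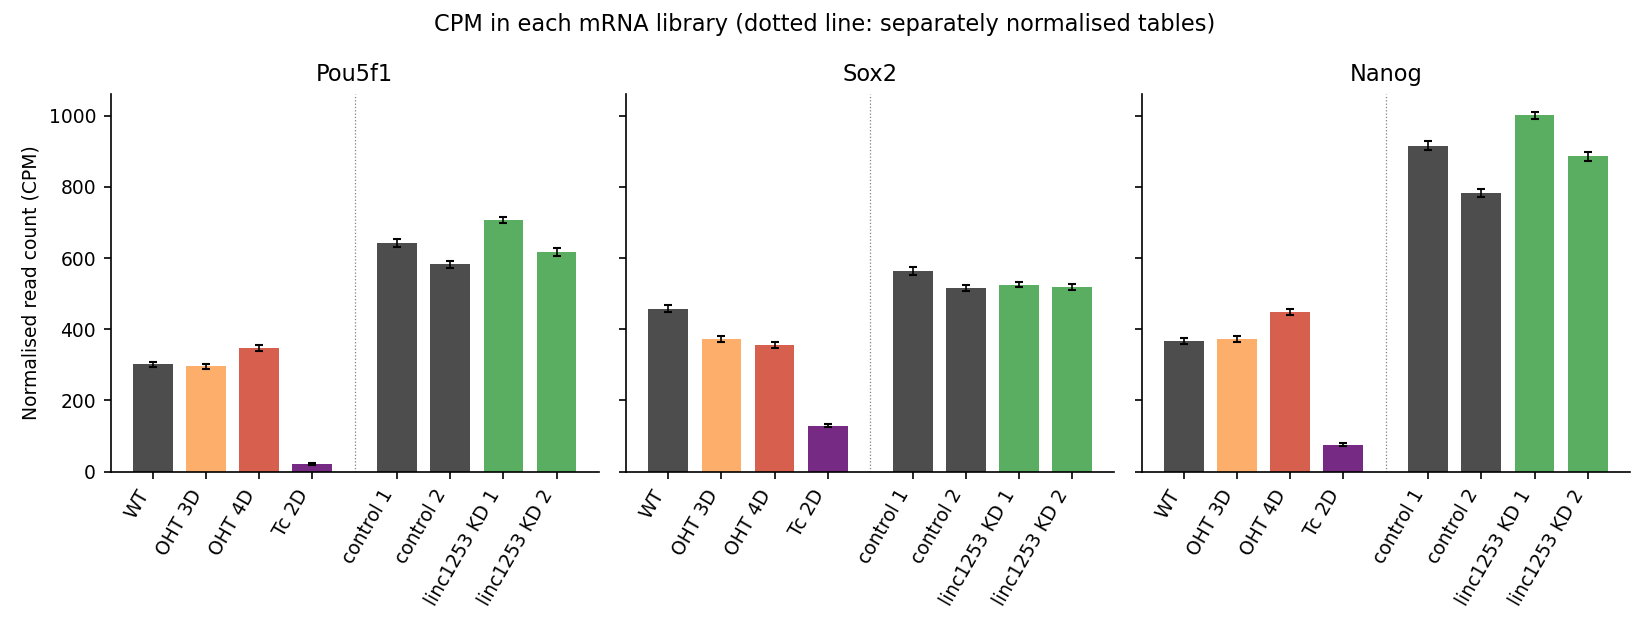
Normalised read count (CPM, bars, axis from 0) of Pou5f1, Sox2 and Nanog in each of the 8 mRNA libraries, with 95% counting intervals as error bars. KD stands for knockdown. The dotted line separates the 2 tables that were normalised separately, and Tc 2D is the lowest bar in all 3 panels.

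WT and Tc 2D differ in cell line as well as in Oct4, so the fall was also computed against the 2 ZHBTc4 control libraries, with all 8 libraries scaled together by TMM. On this joint scale the CPM of Pou5f1 was 665 ± 38.9 (SD, n = 2) in the controls, 372 in WT and 26.2 at Tc 2D. That of Nanog was 922 ± 92.4 (SD, n = 2) in the controls, with 453 in WT and 94.6 at Tc 2D. That of Sox2 was 587 ± 30.3 (SD, n = 2) in the controls, with 565 in WT and 160.4 at Tc 2D. Pou5f1 and Nanog were thus higher in the infected ZHBTc4 cells than in WT, by 0.83 and 1.02 on the log2 scale, whereas Sox2 differed by 0.05, less than the SD of 0.07 between the controls on that scale. On the share of reads on genes in place of TMM, the difference of Sox2 turned to -0.08. The paper names different HiSeq sequencer models for the WT, OHT and Tc libraries and for the shRNA libraries. Cell line, infection, sequencer and table cannot be told apart in these differences. Tc 2D shares the line of the ZHBTc4 controls but also differs from them in infection, sequencer and table, here and in the lists below. Against the ZHBTc4 controls the log2 difference at Tc 2D was -4.61 for Pou5f1, -3.27 for Nanog and -1.86 for Sox2. On the share of reads on genes it was -4.17, -2.82 and -1.42. The order of the 3 falls was the same with either reference and on either scale.

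Ratios between genes within a library do not depend on the scaling of that library. Per kilobase of exon, Nanog had 1.23 times the reads of Pou5f1 in WT, 1.26 and 1.30 times after 3 and 4 days of OHT, and between 1.35 and 1.44 in the 4 shRNA libraries. At Tc 2D the ratio was 3.63 (3.32 to 3.99). Sox2 had 1.39 times the reads of Pou5f1 in WT and 5.62 times (5.16 to 6.14) at Tc 2D. Tc switches Pou5f1 off by design, so the higher ratios over Pou5f1 at Tc 2D are not a separate result. Nanog over Sox2 was 0.88 in WT and 0.65 (0.61 to 0.68) at Tc 2D, against 1.78 and 1.66 in the ZHBTc4 controls. The levels per kilobase therefore ran Sox2, Nanog, Pou5f1 from high to low in WT and at Tc 2D, and Nanog, Pou5f1, Sox2 in all 4 shRNA libraries. In the ZHBTc4 libraries Pou5f1 reads come from the transgene and the disrupted alleles. Its values per kilobase of annotated exon may therefore not compare with those in WT.

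**Figure D2:**
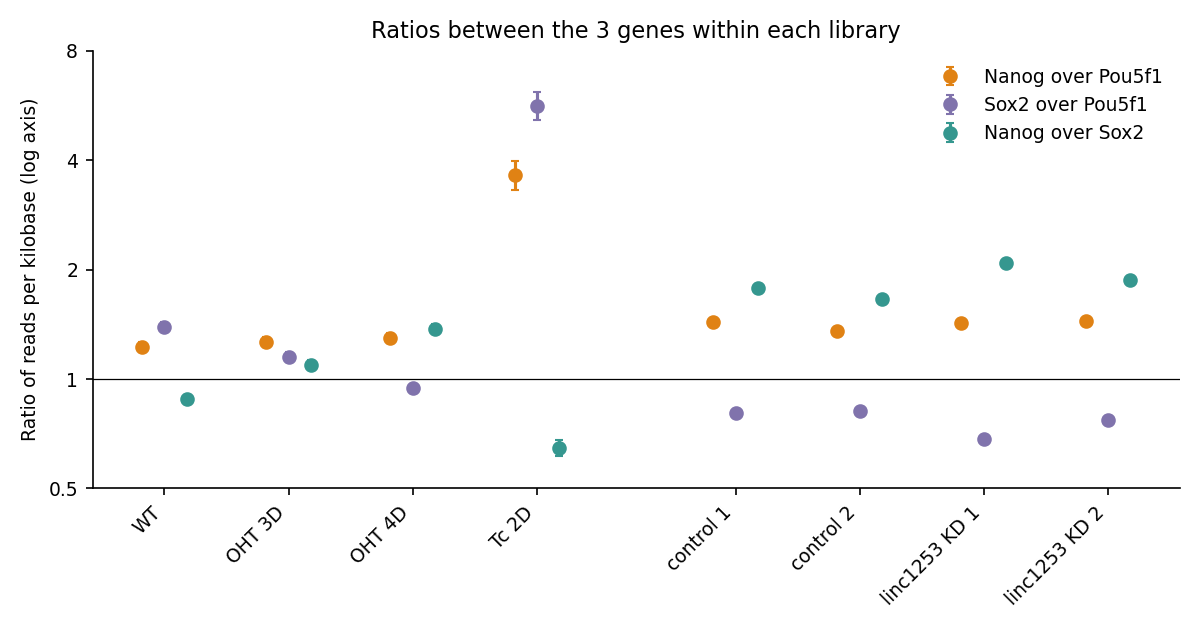
Ratio of reads per kilobase of exon between pairs of the 3 genes (log axis) in each mRNA library, with 95% counting intervals. Tc 2D, where Pou5f1 was switched off by design, stands apart with 3.63 for Nanog over Pou5f1 and 5.62 for Sox2 over Pou5f1. Nanog over Sox2 is below 1 in WT and at Tc 2D.

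The other transcription factors of the pluripotency network fell with the trio at Tc 2D in most cases. Of 17 factors, 12 fell and 2 rose past the threshold, where 25.8% of all genes fell and 23.9% rose, with a median log2-fold-change of -1.40. The largest changes were those of Nr0b1 (Dax1, a nuclear receptor that binds Oct4), from a CPM of 102 to 3.59, Klf2 from 89.9 to 4.33, Klf4 from 257 to 16.3 and Prdm14 from 19.5 to 0.775. Klf2 and Klf4 are Krüppel-like factors that sustain self-renewal. The factors that rose, named after their values were seen, were Tbx3, from 90.6 to 221, and Stat3, from 97.7 to 191. On the joint TMM scale the ZHBTc4 controls had 228 for Tbx3 and 179 for Stat3, against 275 and 238 at Tc 2D, differences of 0.27 and 0.41 that did not pass the threshold. With that reference, 14 of the 17 factors fell and 0 rose, where 24.1% of all genes fell and 24.7% rose. On the share of reads on genes, 10 factors fell and 3 rose against WT, where 2132 of 13449 genes fell and 4663 rose, and 11 factors fell and 2 rose (Tbx3 and Stat3) against the ZHBTc4 controls, where 14.0% of all genes fell and 42.4% rose. Known targets of composite Oct4-Sox2 elements were lower in every case, and 7 of 7 passed the threshold with a median of -2.91, as they did against the ZHBTc4 controls, with -3.05. Lefty1, a Nodal inhibitor, went from 195 to 0.388, Tdgf1, a Nodal co-receptor, from 678 to 7.79, Fgf4, a growth factor, from 276 to 7.08, and the F-box gene Fbxo15 from 118 to 14.8. Lefty1 differed between the references, with 241 in WT and 21.9 in the ZHBTc4 controls on the joint scale. Its log2-fold-change of -7.14 against WT was thus -3.95 against the controls. Fgf4 and Tdgf1 had larger falls than Pou5f1 with either reference. Among relatives of Oct4 and Sox2, 8 of 11 could be tested, 5 fell and 2 rose, with a median of -0.61, so the share that rose was near that of all genes. Sox15 fell the most against WT, from a CPM of 24.9 to 1.55, and Pou2f3 against the ZHBTc4 controls, with -3.74 on the joint scale, where Sox15 had -1.91. Sox4 went from 6.62 to 15.5, but against the ZHBTc4 controls, with 16.1 on the joint scale and 19.3 at Tc 2D, its difference of 0.25 did not pass the threshold, and 0 of the 8 relatives rose. On the share of reads on genes it was 0.68, and 2 of the 8 rose.

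Trophectoderm genes were higher as the trio was lower. Of 9 tested, 8 rose and 1 fell past the threshold, and the shares of all genes, 23.9% up and 25.8% down, hold for this and the next 3 lists. Their median was 2.69 on the log2 scale. Against the ZHBTc4 controls on the joint scale 8 rose and 0 fell, with a median of 2.64. With that reference 24.7% of all genes rose and 24.1% fell, which also holds for the next 3 lists. Hand1, Gata3, Cdx2, Plac1 and Tfap2a had a CPM below 1 in WT. They passed the filter through other libraries, so against WT they could only be called as rising. Cdx2 and Plac1 were also below 1 in the ZHBTc4 controls, with 0.389 and 0.578 on the joint scale. With that reference both passed the filter through Tc 2D, and Cdx2 could only be called as rising. Hand1, a basic helix-loop-helix factor of the trophoblast, went from a CPM of 0.268 to 61.8, Gata3 from 0.313 to 13.3 and the keratin gene Krt18 from 17.7 to 157. Cdx2, the homeobox gene that defines trophectoderm, had 2 reads in WT and 262 at Tc 2D. The gene that fell, named after its value was seen, was Tfap2c, from 192 to 85.5. Its direction turned with the reference, since it had 55.6 in the ZHBTc4 controls and 106 at Tc 2D on the joint scale, a rise of 0.92. Of 7 primitive endoderm genes, 4 rose (Gata6, Dab2, Pdgfra and Lama1) and 0 fell past the threshold, with a median of 0.59. Lama1, just past the threshold at 0.59, was lower than in the ZHBTc4 controls on the joint scale, with 87.4 against 107, a difference of -0.28 that turned to 0.16 on the share of reads on genes. Against these controls on the joint scale, 4 of 6 tested genes of the list rose and 0 fell, with a median of 0.90. Gata4, at -0.12 against WT, was among those that rose, with 1.51. Of 3 mesendoderm and neuroectoderm genes tested, Pax6 and Nes fell and 0 rose. Nes lay at the threshold with -0.58, and on the share of reads on genes 1 gene of this list fell. Against the ZHBTc4 controls on the joint scale, 1 of 2 tested rose and 0 fell. Nes had -0.18 there, or 0.25 on the share of reads on genes. The gene that rose was Zic1, from 0.194 to 1.01, which passed the filter through Tc 2D. Of 12 feeder fibroblast markers, 2 rose and 6 fell, or 4 on the share of reads on genes, with a median of -0.59. Acta2, Lum, Dcn, Postn and S100a4 were listed at 0 at Tc 2D. Without Fn1, which ES cells also express, the CPM of that list summed to 35.2 in WT and 51.5 at Tc 2D, and Pdgfrb made up 25.1 of the latter. In the ZHBTc4 controls, normalised separately, the sums were 87.6 and 78.4. Against these controls on the joint scale, 1 of 9 tested markers rose and 5 fell. Ruvbl1 had a CPM of 85.0 at Tc 2D, against 198 in WT of the other line, a log2-fold-change of -1.21. It was not set against the ZHBTc4 controls here. By RT-PCR and immunoblot, the paper found Pontin mRNA and protein without significant change when Oct4 was depleted. In bulk RNA, fewer cells that express a gene and less RNA per cell cannot be told apart.

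Pontin depletion left all 3 genes within the threshold at both time points. The CPM of Pou5f1 was 301 before OHT, 296 after 3 days and 347 after 4 days. That of Nanog was 367, 372 and 448 in the same libraries. Both were close to WT at OHT 3D and somewhat higher at OHT 4D. Sox2, at 458, 372 and 356, was lower in both treated libraries than in WT. The log2-fold-changes at OHT 3D were -0.02 (-0.07 to 0.02) for Pou5f1, 0.02 (-0.03 to 0.06) for Nanog and -0.30 (-0.34 to -0.26) for Sox2. At OHT 4D they were 0.20 (0.16 to 0.25), 0.28 (0.24 to 0.33) and -0.36 (-0.40 to -0.32). None of the 3 genes was called at either time point. Of all genes, 6.01% were called as upregulated and 5.88% as downregulated after 3 days, and 6.48% and 8.89% after 4 days. On the share of reads on genes, the difference of Pou5f1 at OHT 3D was 0.01 in place of -0.02.

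The only replicates in the series are the shRNA libraries of the other line, and they give a scale for these differences. Pou5f1 differed by 0.14 on the log2 scale between the 2 control libraries and by 0.20 between the 2 knockdown libraries. The difference of Pou5f1 at OHT 4D, 0.204, was close to the latter gap, 0.198. Nanog differed by 0.23 and 0.18 between replicates, against 0.28 at OHT 4D. Sox2 differed by 0.13 and 0.02 between replicates, against -0.30 and -0.36 after OHT. Sox2 was thus the member whose change after OHT stood furthest from these gaps, although it was not tested, with 1 library per time point. From OHT 3D to OHT 4D, Sox2 moved by -0.06 and Pou5f1 and Nanog by 0.23 and 0.27.

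**Figure D3:**
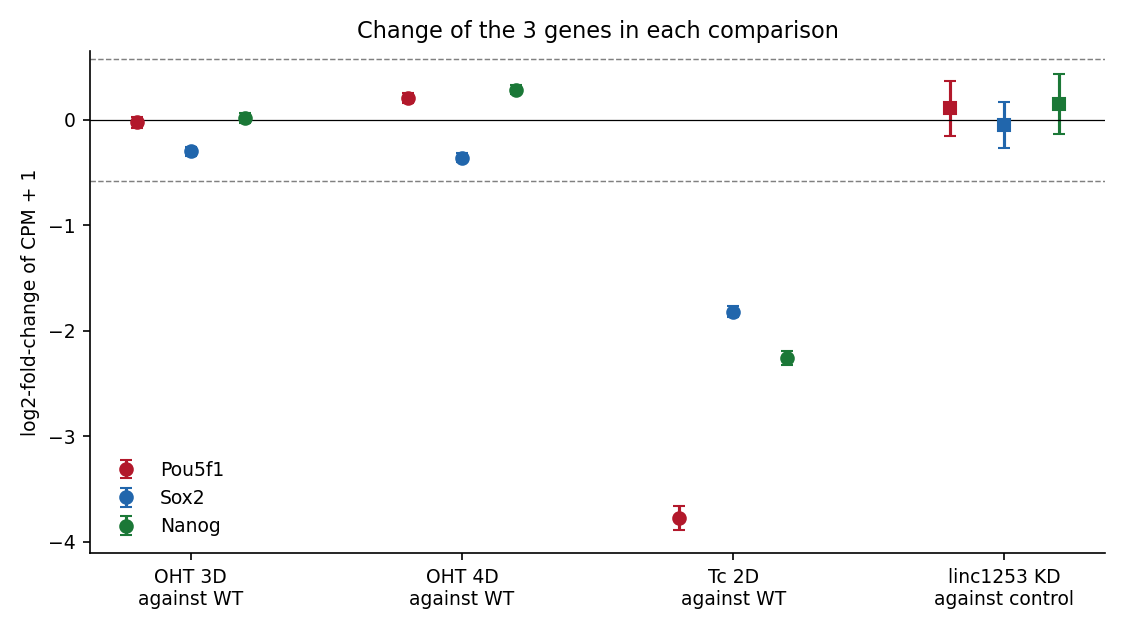
Log2-fold-change of CPM plus 1 for Pou5f1, Sox2 and Nanog in the 4 comparisons. Circles carry 95% counting intervals, squares carry 95% confidence intervals from limma over 2 libraries against 2, and dashed lines mark the threshold of 0.58. The only points past the threshold are those at Tc 2D.

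Set against Pou5f1 within each library, Sox2 had 1.39 (1.35 to 1.44) times its reads per kilobase in WT. After 3 days of OHT the ratio was 1.15 (1.12 to 1.19) and after 4 days 0.94 (0.91 to 0.97). These intervals do not overlap, but they cover the counting of reads only. This ratio also differed between the 2 linc1253 knockdown libraries, replicates of the same group. Their intervals, 0.67 to 0.69 and 0.75 to 0.79, did not overlap either. Nanog over Sox2 went from 0.88 in WT to 1.10 and 1.38. Nanog over Pou5f1 ran from 1.23 (1.19 to 1.27) in WT to 1.30 (1.26 to 1.34) at OHT 4D, with overlapping intervals. Pou5f1 and Nanog thus had nearly the same proportion in these libraries while Sox2 was lower against both after OHT, with 1 library per time point and no test. Sox2 was the highest of the 3 per kilobase in WT, with 186 CPM per kilobase, and the lowest at OHT 4D, with 145.

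The network factors were called after OHT in small numbers. Of 17, 1 rose and 1 fell at OHT 3D, where 6.01% of all genes rose and 5.88% fell, and 2 rose and 3 fell at OHT 4D, where 6.48% and 8.89% did. Their median log2-fold-change was 0.15 and then 0.06, against -0.02 and -0.00 for all genes. Gbx2, a homeobox gene that promotes self-renewal, rose from a CPM of 10.4 to 30.4 and 22.5, and Otx2, a homeobox gene of the primed state, fell from 20.5 to 10.5 and 12.6. At OHT 4D, Tbx3 also rose, from 90.6 to 178, and Nr5a2 and Zfp143 also fell, from 46.0 to 24.0 and from 48.8 to 31.7. Of the 7 composite element targets, 1 fell at OHT 3D and 2 at OHT 4D. Lefty1 went from 195 to 60.5 and 112, and Fgf4 from 276 to 221 and 179, of which the first did not pass the threshold. Their median log2-fold-change was -0.27 at OHT 3D and 0.06 at OHT 4D, against -2.91 at Tc 2D. Among relatives of Oct4 and Sox2, Sox3 rose at OHT 3D, from 0.671 to 2.04, and Pou2f2 and Pou2f1 fell at OHT 4D, from 3.93 to 1.66 and from 58.7 to 32.9.

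Many lineage markers rose after OHT while the trio stayed within the threshold. Of all genes, 6.01% rose and 5.88% fell after 3 days, and after 4 days the shares were 6.48% and 8.89%. Of 9 trophectoderm genes, 6 rose at each time point, Tfap2c and Eomes fell at OHT 3D and Tfap2c at OHT 4D, with medians of 0.68 and 1.16. Krt8, a keratin of simple epithelia, went from a CPM of 19.8 to 65.1 and 155, and Hand1 from 0.268 to 3.08 and 5.34. Hand1, Gata3, Plac1 and Cdx2 were among the genes that rose at each time point. Each was below a CPM of 1 in WT and could only be called as rising. Plac1 and Cdx2 also stayed below 1 at OHT 3D, with 15 reads each. Of 7 primitive endoderm genes, 3 rose at OHT 3D and 6 at OHT 4D, among them Gata6, from 0.894 to 2.44 and 7.27. Their medians were 0.50 and 1.00. Of 3 mesendoderm and neuroectoderm genes, 0 were called at OHT 3D, and the mesoderm gene T and Nes rose at OHT 4D. T, with a CPM of 0.358 in WT, passed the filter only through OHT 4D, with 2.23. So did Sox17 of the primitive endoderm list, with 0.313 in WT and 1.62 at OHT 4D. Both could only be called as rising. Markers of feeder fibroblasts rose in the same libraries, 11 of 12 tested at each time point, with medians of 2.61 and 3.15. Lum and Dcn, the other markers of the 14 on that list, did not pass the filter on low values. S100a4, Postn and Col3a1 passed it only through the OHT libraries. Before OHT they were at 0.268, 0.492 and 0.581, and Oct4-depleted cells also had each below 1. The 11 that rose include these genes, and S100a4 and Postn could only be called as rising. Without Fn1 the summed CPM of the list was 35.2 before OHT, then 358 and 400.1, and Lum was listed at 0 in WT and at OHT 3D. Whether feeder cells were present, and had any part in the change of Sox2 or of the lineage markers, was not tested.

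**Figure D4:**
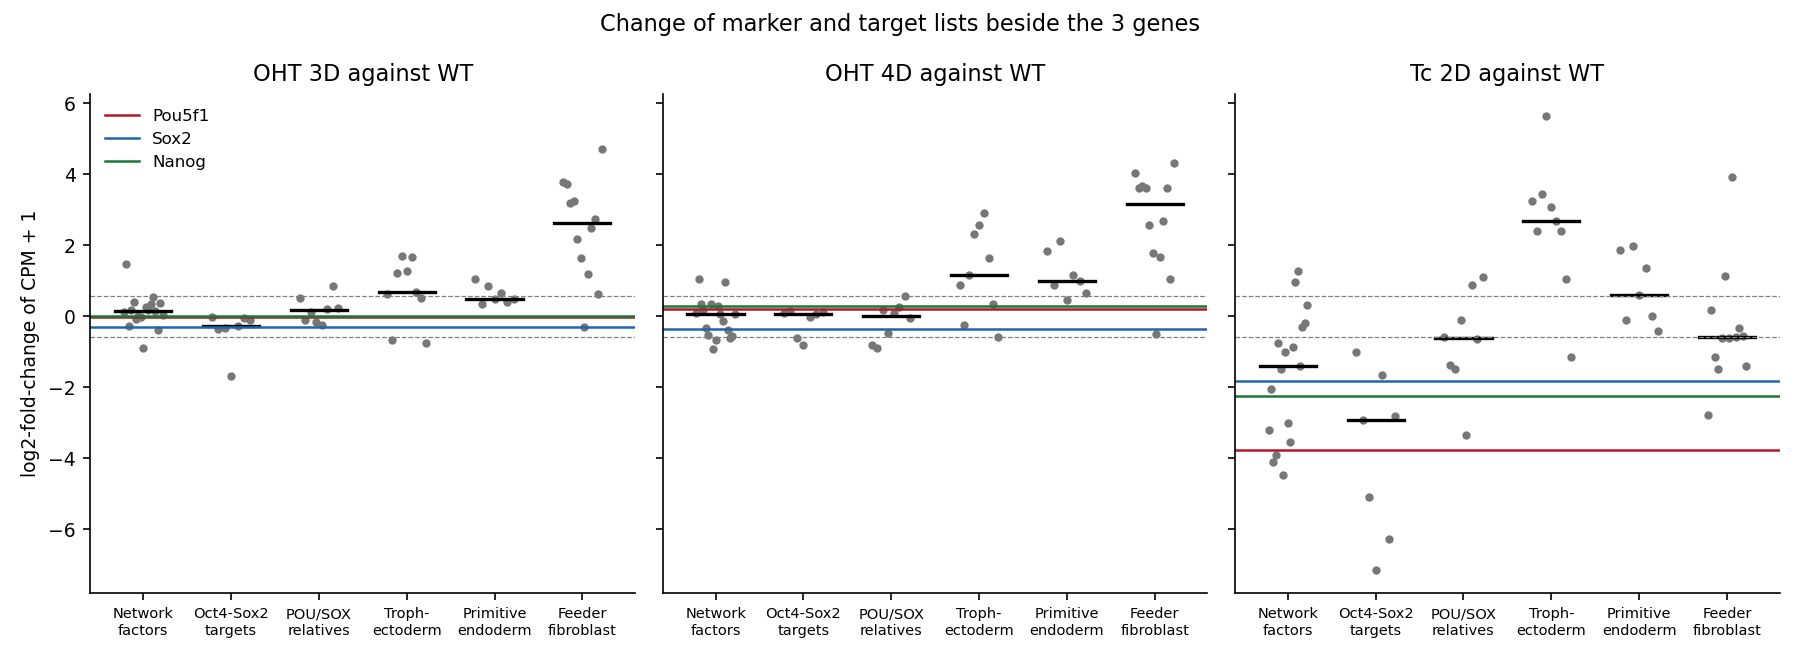
Log2-fold-change of CPM plus 1 of each tested gene (grey points, black bar at the list's median) in 6 lists, for OHT 3D, OHT 4D and Tc 2D against WT. Coloured lines show Pou5f1, Sox2 and Nanog, and dashed lines the threshold of 0.58. At Tc 2D the network factors and composite element targets have medians of -1.40 and -2.91, whereas after OHT the trio stays between the dashed lines and the feeder fibroblast list has the highest median.

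Knockdown of linc1253 in ZHBTc4 cells gave CPM values of the trio that overlapped with those of the controls, and no member passed the test. The CPM of Pou5f1 was 642 and 582 in the control libraries and 708 and 617 in the knockdown libraries. Nanog had 916 and 783 in the controls and 1002 and 886 after knockdown. Sox2 had 564 and 516 in the controls and 526 and 518 after knockdown. The 2 groups overlapped for all 3 genes. They did not overlap for 38.0% of the 13407 genes tested, so overlap was the more common outcome. In limma with trend, Pou5f1 had a log2-fold-change of 0.11 (95% confidence interval -0.15 to 0.37) and an adjusted p of 0.842. Nanog had 0.15 (-0.13 to 0.44) with an adjusted p of 0.796 in limma, and Sox2 had -0.05 (-0.27 to 0.17) with an adjusted p of 0.931. These intervals, from the fit without a replicate block, stay within the threshold of 0.58 and leave smaller changes in either direction possible. With a replicate block the interval of Nanog was 0.02 to 0.29, which left out 0, with an adjusted p of 0.109 in limma.

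By limma without a replicate block, 0% of all genes were called in this comparison, with 0 upregulated and 0 downregulated at an adjusted p below 0.05, and 496 and 503 at an unadjusted p below 0.05. With the block limma called 933 up and 1027 down, or 14.6%, although the labels do not say that replicate numbers pair the libraries. edgeR (quasi-likelihood) called 0 genes and DESeq2 called 50, or 0.373%, and no tool called a member of the trio, with the block or without it. None of the 17 network factors and none of the 7 composite element targets was called by limma without the block, with medians of 0.09 and -0.05, nor was any gene of the other lists. The feeder fibroblast list without Fn1 summed to a CPM of 87.6 and 78.4 in the controls and 86.6 and 130 after knockdown. Within these 4 libraries Nanog over Pou5f1 lay between 1.35 and 1.44 per kilobase, and the groups overlapped. Sox2 over Pou5f1 was 0.81 in both controls and 0.68 and 0.77 after knockdown. Nanog over Sox2 was 1.78 and 1.66 in the controls and 2.09 and 1.87 after knockdown. These last ratios share Sox2 and were not tested, and single genes did not overlap between these groups in 38.0% of cases.

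Over all 8 libraries the 3 genes did not have the same pattern. It was compared over the 9957 genes whose mean CPM reached 5 in each table, by the root-mean-square difference of log2 CPM plus 1 after centring within each table, so a small value means a like pattern. The points share their libraries and their scaling, so these values are a description only. Genes most like Pou5f1 were Prdm14, a pluripotency factor, at 0.108, Slc28a1, a nucleoside transporter, at 0.119, and Klf4 at 0.126. Genes most like Sox2 were Mov10, an RNA helicase, at 0.0616, Rnf145 at 0.0755 and Ulk1, an autophagy kinase, at 0.0811. Genes most like Nanog were Mfng, a glycosyltransferase that acts on Notch, at 0.0871, Ddc, dopa decarboxylase, at 0.100, and Uqcrfs1, a subunit of respiratory complex III, at 0.110. The distance was 0.295 between Nanog and Sox2, 0.454 between Nanog and Pou5f1 and 0.703 between Sox2 and Pou5f1. Nanog stood between the other two.

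The ChIP-seq libraries address whether Pontin lies at the promoters of the trio. They come from untreated ZHBTc4 cells, where the Pou5f1 window counted belongs to the disrupted endogenous alleles, whereas Oct4 comes from the transgene. The 2 libraries hold 40729076 Pontin and 17185883 GFP reads. Reads were counted from 2500 bases upstream to 500 bases downstream of the gene start, the regions around the sequences above. Pou5f1 had 113 Pontin and 36 GFP reads, or 2.77 and 2.09 RPM (reads scaled to library size). Sox2 had 97 and 45, or 2.38 and 2.62 RPM. Nanog had 64 and 41, or 1.57 and 2.39 RPM. Pontin over GFP gave a log2 ratio of 0.41 (-0.15 to 0.99) for Pou5f1, -0.14 (-0.66 to 0.41) for Sox2 and -0.60 (-1.19 to 0.00) for Nanog. The interval of each gene held or touched 0, so no enrichment over GFP was detectable over the whole window at this depth. The median of 21178 promoters with reads in both libraries was 0.34, which left Pou5f1 near the middle at percentile 54.4, Sox2 at percentile 23.3 and Nanog at percentile 8.02. None of the 3 promoters had a ratio above 1, as 14.8% of promoters did, and none was below -1, as 3.01% were.

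**Figure D5:**
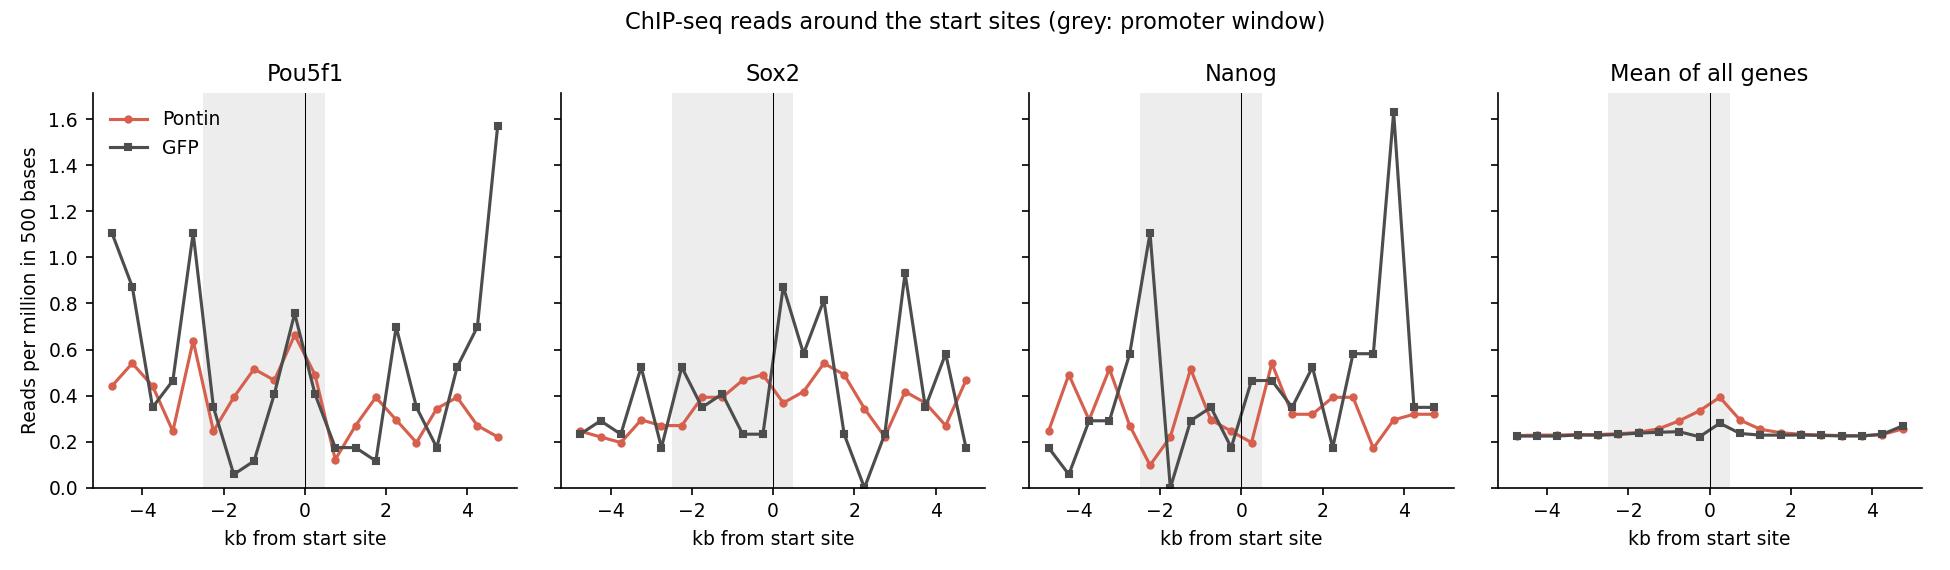
Pontin and GFP ChIP-seq RPM in bins of 500 bases, by distance in kilobases from the annotated start of Pou5f1, Sox2 and Nanog, and the mean over all protein-coding genes. The grey band is the promoter window. The mean of all genes reaches 0.393 for Pontin just downstream of the start. The profiles of the 3 genes rest on few reads per bin, too few to compare their shape with that mean.

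Over all protein-coding genes, the mean Pontin signal rose towards the start, from 0.227 RPM in the bin that begins 5000 bases upstream to 0.393 in the first 500 bases downstream, where GFP had 0.280. In the same first bin downstream, Pou5f1 had 20 Pontin and 7 GFP reads, Sox2 had 15 and 15, and Nanog had 8 and 8. Just upstream, Pou5f1 had 27 and 13, Sox2 20 and 4, and Nanog 10 and 3. Of the 41 GFP reads in the Nanog promoter, 19 lay in the most upstream bin of 500 bases, where Pontin had 4. In the Pou5f1 promoter, Pontin had 16 reads and GFP 1 in the bin that begins 2000 bases upstream, and 21 and 2 in the next. The Pou5f1 bins that begin 2500 and 1000 bases upstream had 10 and 6, and 19 and 7. These bins were named after their values were seen and were not tested. Within 1000 bases either side of the start, which leaves out the bins further upstream, the ratio of Nanog was -0.16, that of Sox2 -0.14 and that of Pou5f1 -0.00. The median of all promoters in that window was 0.53, and Pou5f1 lay at percentile 24.5, Sox2 at 19.4 and Nanog at 18.7. Both mates of a pair are in the files, so the intervals above are too narrow. With first mates only, the ratio was 0.23 (-0.51 to 1.02) for Pou5f1, -0.00 (-0.79 to 0.83) for Sox2 and -0.59 (-1.42 to 0.28) for Nanog. Promoters of the 17 network factors had a median ratio of 0.32 in the 3 kb window, with 4 above 1, and those of the 7 composite element targets 0.23, with none above 1. Over all promoters that median was 0.34, and 14.8% were above 1.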

How the data were processed

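mRNA was sequenced in 8 libraries and ChIP-seq was done in 2. Trimmed reads were mapped with TopHat (NCBIM37) and assigned to genes with HTSeq by the authors, who deposited CPM that they had scaled by TMM in edgeR, in 2 separately normalised tables. Dividing each CPM by the value of 1 read gave whole reads for 100% of values (tolerance 0.01 read). The authors deposited ChIP-seq reads as aligned intervals, each with its mapping quality score. Bowtie2 is named in the submitters' processing notes.

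Genes had to exceed a CPM of 1 in 1 library of a table. A pseudocount of 1 was added, and where a group had 1 library a call was a log2-fold-change beyond 0.58 in size, with no test. For linc1253, 2 libraries against 2, the test was limma (version 3.58.1, with trend) on log2 values, with Benjamini-Hochberg adjustment at 0.05. Recovered reads were tested with edgeR (version 4.0.16) and DESeq2 (version 1.42.0). The study's own combined test was not run. Promoter reads were counted by their midpoint and scaled by library size. Intervals are exact binomial or Poisson intervals at 95% and cover counting error only, since reads carry no molecular identifiers. Per-kilobase values use the union of annotated exons (GENCODE, NCBIM37), and motif windows were read from the same assembly. Symbols were matched for 22337 of 22713 IDs.

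The members and the gene lists were chosen with earlier results of these data known. Genes named are the members, Ruvbl1, up to 4 genes per list with the largest change, and the 3 genes most like each member. Other genes were named after their values were seen, where a count was 5 or fewer. Alternatives were other pseudocounts, filters, thresholds, scalings, references and tools, a replicate block, leaving out each library, and, for ChIP-seq, other windows, scalings, mapping qualities and 1 read per position. Shares of reads and first mates only were added after seeing the data. The tests for linc1253 were tried on simulated counts, in which libraries varied independently of each other. Sox1 was not analysed here. One network factor was left out of its list and is not reported here. Python 3.11.15, numpy 2.4.6, pandas 2.3.3, scipy 1.17.1 and R 4.3.3 were used.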

Additional observations from a re-analysis of the deposited data

How the results depend on the processing

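The side of the threshold on which Pou5f1, Sox2 and Nanog lay was the same in each comparison under every alternative run. The log2-fold-change at Tc 2D ranged from -4.61 to -3.46 for Pou5f1, from -1.86 to -1.42 for Sox2 and from -3.27 to -1.94 for Nanog. For linc1253 knockdown, Sox2 turned from -0.05 to 0.016 without control replicate 1 (limma adjusted p = 0.992), and leaving out each library gave -0.11 to 0.016 for Sox2. The values over all alternatives ran from 0.01 to 0.21 for Pou5f1 and from 0.04 to 0.27 for Nanog. The Pontin ratio ran from -0.00 to 0.41 for Pou5f1, from -0.48 to -0.00 for Sox2 and from -0.94 to -0.16 for Nanog, and the 2.37-fold deeper Pontin library and the few GFP reads limit it.

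Counts over all genes moved more. With a pseudocount of 3, 445 genes rose and 498 fell at OHT 3D and 496 rose at OHT 4D. With an absolute log2-fold-change above 1, 255 rose and 125 fell at OHT 3D, 320 and 216 at OHT 4D, and 1718 and 1696 at Tc 2D. On the share of reads on genes, 2132 fell at Tc 2D, and against the ZHBTc4 controls on that scale 5840 rose and 1934 fell. For linc1253, limma called 0 genes, DESeq2 called 22 up and 28 down, and leaving out 1 library gave 0 to 16 up and 0 to 3 down in limma, where the lone library of a group is assumed to vary like the others. Replicate numbers are shared by the control and knockdown libraries but the labels do not say that they mark a pairing. Deviations of same-numbered libraries from their group means correlated at 0.673. With the replicate block limma called 933 up and 1027 down, or 14.6% of genes, and no member, with adjusted p of 0.218 for Pou5f1, 0.631 for Sox2 and 0.109 for Nanog, whose blocked interval, 0.02 to 0.29, left out 0.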
